A study of Mus musculus with 6 samples.

Results

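The aminoacyl-tRNA synthetase genes were examined in mouse pancreatic islets in pregnancy. They were taken by symbol from a fixed list of 36 genes, and all 36 were found among the 19940 genes of the authors' deposited table. By their symbols 20 encode cytosolic enzymes and 16, whose symbols end in 2, encode enzymes of mitochondria. The mitochondrial aspartyl enzyme was not on the list. RNA was sequenced from hand-picked islets of C57BL6/J mice, with 3 samples from pregnant animals at gestational day 14.5 and 3 samples from their nonpregnant littermates. No genetic change, transgene or other treatment is labelled in either group, and ages are not given in the labels. The series' design mentions 5 animals in each group, and whether islets of several animals were pooled in a sample is not stated.

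Each synthetase joins 1 kind of amino acid to its matching transfer RNAs, which carry it to the ribosome. The cytosolic enzymes feed the translation of nuclear mRNAs, including that of insulin in beta cells, and several of them are held together in the multisynthetase complex. The mitochondrial enzymes are nuclear gene products that are imported and charge the transfer RNAs used to translate the few proteins encoded in mitochondrial DNA. Many cytosolic synthetase genes are known targets of ATF4, the transcription factor of the amino acid and endoplasmic reticulum stress responses.

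The table gave 1 mean read count per gene and group and no value per sample, so neither a spread between samples nor an overlap of groups can be given for any value here. The authors' mean reads summed to 87654449 over all genes in pregnant islets and 84493872 in nonpregnant islets. The hormone genes that define islet tissue were abundant in both groups, led by the insulin gene Ins2 with authors' means of 11981604 reads in pregnant islets and 10394603 reads in nonpregnant islets. Digestive enzyme and other markers of acinar cells differed between the groups. Their 24 genes summed to 1460927 mean reads in pregnant islets, which is 1.67% of all reads, against 111832 mean reads, or 0.132%, in nonpregnant islets. Of these 24 markers 22 were called higher by the authors' deposited table, and Amy2a5 was listed at 0 in nonpregnant islets. The 5 markers of dividing cells were called higher as well, summing to 7595 mean reads in pregnant islets and 1423 mean reads in nonpregnant islets. Of 6 alpha cell markers 0 were higher and 3 were lower, with a median log2 ratio of -0.37 by the authors' deposited table and 1.62% of reads in pregnant islets against 2.41% in nonpregnant islets. Of 9 beta cell markers 2 were higher and 1 was lower, and they took 22.1% of reads in pregnant islets and 18.9% in nonpregnant islets. Of the markers of other cell types, 1 of 4 for delta cells was lower, 1 of 6 for duct and 1 of 5 measured for macrophages were higher, and 0 were called for PP, endothelial and stellate cells. The part of these cell populations in the synthetase values was not tested. In RNA of whole islets, fewer cells of a type and less RNA per cell cannot be told apart.

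Synthetase mRNAs showed small differences in pregnant islets, with fold changes between 0.7 and 1.32. With an adjusted p under 0.05 as the criterion, the authors' deposited table listed 2 of the 20 cytosolic genes, Lars and Hars, as higher in pregnant islets and 0 as lower. Of the 16 mitochondrial genes 0 were higher and 2, Ears2 and Hars2, were lower. Among all genes, 7.57% were called higher, 4.15% lower and 11.7% either way. The 4 called synthetase genes are 11.1% of the 36, a share near that of the table. Among the 11200 genes with at least 300 mean reads over both groups, a depth which every synthetase gene had, the shares were 10.1% higher, 6.35% lower and 16.5% either way. At an unadjusted p under 0.05 there were 3 higher and 0 lower cytosolic genes, and 0 higher and 5 lower mitochondrial genes. The unadjusted shares were 12.4% higher and 9.78% lower over the table. Among the genes with at least 300 mean reads they were 16.4% higher and 14.2% lower.

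The compartments differed in where their ratios lay. The median log2 ratio of pregnant over nonpregnant islets by the authors' deposited table was 0.053 for the cytosolic genes and -0.17 for the mitochondrial genes, beside -0.0145 for the 15682 genes with at least 10 mean reads. A ratio above 0 was held by 12 of 20 cytosolic genes and by 4 of 16 mitochondrial genes, beside 7502 of the 15682. When the group means were scaled to their totals, the cytosolic median was -0.033, so its sign depends on the scale. On that scale 9 of 20 cytosolic and 2 of 16 mitochondrial genes had a ratio above 0. The cytosolic median exceeded the mitochondrial one by 0.22 log2 units, a distance that a common scaling factor leaves almost in place. These are descriptions of the gene lists without a test.

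**Figure D1:**
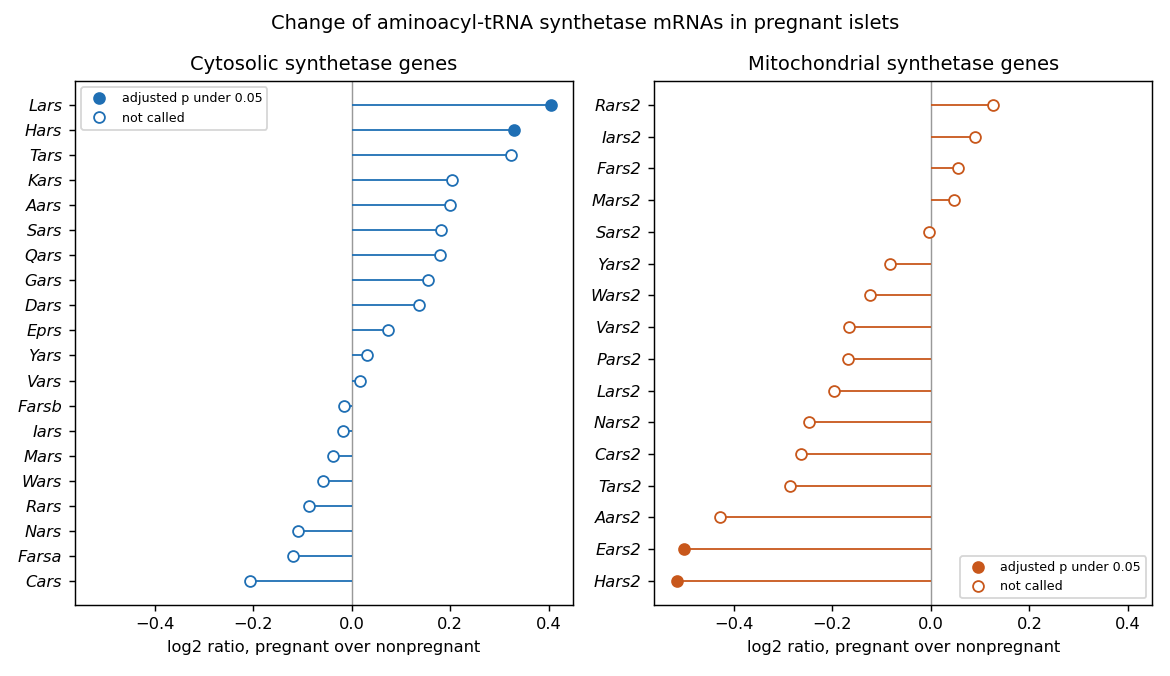
Deposited log2 ratios of pregnant over nonpregnant islets for the 20 cytosolic genes (left panel) and the 16 mitochondrial genes (right panel), as points joined to 0, with filled points for genes at an adjusted p under 0.05. The filled points are Lars and Hars on the higher side, and Ears2 and Hars2 on the lower side. The table gives group means, so no error bars are drawn.

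Lars, which charges leucine and also acts as a leucine sensor for mTORC1 signalling, had the largest ratio among the 36 genes. Its authors' means were 10929 reads in pregnant islets and 8460 reads in nonpregnant islets. It rose 1.32-fold by the authors' deposited table, with a log2 ratio of 0.40 and an adjusted p of 0.00183. Hars, the cytosolic enzyme for histidine, had authors' means of 3643 reads in pregnant islets and 2971 reads in nonpregnant islets. It rose 1.26-fold by the authors' deposited table with an adjusted p of 0.0259. Both genes lie on the minus strand of chromosome 18.

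Among the 18 cytosolic genes that did not pass, fold changes by the authors' deposited table ran between 0.87 and 1.25. Tars, the threonine enzyme, stood closest to the threshold, with authors' means of 8578 reads in pregnant islets and 7023 reads in nonpregnant islets. Its fold change was 1.25 by the authors' deposited table, with an unadjusted p of 0.00746 and an adjusted p of 0.0595. When genes under 10 mean reads were left out of the adjustment, Tars passed, at an adjusted p of 0.0471. Tars occupies chr15:11382301-11399665 of GRCm38 on the minus strand. Kars, whose gene gives rise to both the cytosolic and the mitochondrial lysine enzyme, had authors' means of 6946 reads in pregnant islets and 6181 reads in nonpregnant islets (fold 1.15 by the authors' deposited table, with an adjusted p of 0.231). Cars, for cysteine, had the lowest cytosolic ratio, with authors' means of 6267 reads in pregnant islets and 7398 reads in nonpregnant islets (fold 0.87 by the authors' deposited table, with an adjusted p of 0.62). Exons of Cars share 211 bases with the opposite-strand gene Gm15580, and without knowledge of the strand setting of the counting, reads from there cannot be assigned.

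The 8 enzymes of the multisynthetase complex, those for arginine, aspartate, glutamine, isoleucine, leucine, lysine and methionine and the fused glutamate and proline enzyme Eprs, had a median log2 ratio of 0.11 by the authors' deposited table. The 12 cytosolic genes outside the complex had a median of 0.0245. In the complex 1 gene, Lars, was called higher, and outside it 1 gene, Hars, was. Of the 3 scaffold genes of the complex 0 were called, also at an unadjusted p under 0.05, with fold changes by the authors' deposited table of 1.06 for Aimp1, 1.02 for Aimp2 and 1.08 for Eef1e1 (adjusted p = 0.848, 0.98 and 0.903). Synthetases fall into 2 structural classes by their catalytic fold. Leaving out Eprs, which joins an enzyme of each class, the median log2 ratio by the authors' deposited table came to -0.017 for 9 cytosolic class I genes and 0.17 for 10 cytosolic class II genes. In mitochondria it was -0.12 for 9 class I genes and -0.25 for 7 class II genes. Each of these 4 groups held 1 called gene. Over both compartments the medians were -0.0475 for the 18 class I genes, with 1 higher and 1 lower, and -0.004 for the 17 class II genes, also with 1 higher and 1 lower.

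Ears2, the mitochondrial enzyme for glutamate, fell with the smallest p of the 36 genes. Its authors' means were 1725 reads in pregnant islets and 2499 reads in nonpregnant islets. The fold change was 0.71 by the authors' deposited table, with a log2 ratio of -0.50 and an adjusted p of 0.000309. It lies on the minus strand at chr7:122037213-122067263 of GRCm38, and 89 bases of its exons overlap exons of Ubfd1 on the opposite strand. Hars2, the mitochondrial histidine enzyme, had authors' means of 1973 reads in pregnant islets and 2893 reads in nonpregnant islets. Its fold change was 0.7 by the authors' deposited table, with a log2 ratio of -0.52 and an adjusted p of 0.00252.

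Among the 14 mitochondrial genes that did not pass, fold changes by the authors' deposited table ran between 0.74 and 1.09, and 10 of the 14 log2 ratios were below 0. Aars2, for alanine, had authors' means of 675 reads in pregnant islets and 932 reads in nonpregnant islets (fold 0.74 by the authors' deposited table, with an adjusted p of 0.079). Tars2, for threonine, had authors' means of 1692 reads in pregnant islets and 2115 reads in nonpregnant islets (fold 0.82 by the authors' deposited table, with an adjusted p of 0.115). Cars2, for cysteine, had authors' means of 1420 reads in pregnant islets and 1750 reads in nonpregnant islets (fold 0.83 by the authors' deposited table, with an adjusted p of 0.467). Aars2 and Tars2, with Nars2 for asparagine, passed at an unadjusted p under 0.05 but not after adjustment. Exons of Cars2 share 422 bases with Naxd and those of Nars2 share 284 bases with C230038L03Rik, both on the opposite strand. In all, 14 of the 20 cytosolic and 9 of the 16 mitochondrial genes shared no exon bases with an annotated gene on the opposite strand, and exons of Aars shared 1326 bases with Exosc6 on its own strand. The highest mitochondrial ratio was that of Rars2, the arginine enzyme, at 1.09 by the authors' deposited table with an adjusted p of 0.606.

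**Figure D2:**
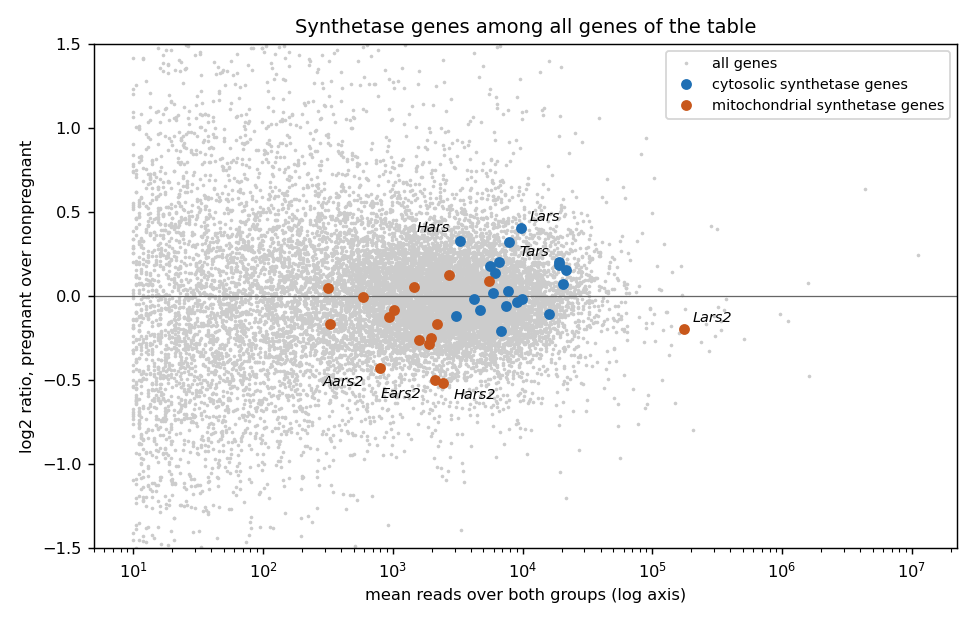
Deposited log2 ratio against mean reads over both groups (log axis) for genes with at least 10 mean reads (grey) and the synthetase genes (cytosolic blue, mitochondrial orange). The synthetase genes lie within the grey cloud, from 316.5 mean reads for Mars2 upward, and Lars2 stands far to the right of the other mitochondrial genes. The axis is limited to log2 ratios of 1.5 in either direction, which leaves 419 genes outside it.

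Hars and Hars2 showed the widest distance between a cytosolic gene and its mitochondrial counterpart. They are neighbours on opposite strands whose first exons meet, and 195 bases of their exons overlap. Their log2 ratios by the authors' deposited table were 0.33 for Hars and -0.52 for Hars2, a distance of 0.85. Reads in the shared stretch cannot be assigned without knowledge of the strand setting, and the stretch is 195 of 2447 annotated exon bases of Hars and of 4279 of Hars2. Of 17 pairings of a cytosolic with a mitochondrial gene for the same amino acid, 12 had the higher ratio on the cytosolic side and 5 on the mitochondrial side, with a median distance of 0.14. Eprs and Fars2 stand in 2 pairings each, since Eprs matches both Ears2 and Pars2, and Fars2 matches both subunits of the cytosolic phenylalanine enzyme, Farsa and Farsb. After histidine, the widest distances were 0.63 for alanine, 0.61 for threonine, 0.60 for leucine and 0.58 for glutamate. The pairings for arginine, isoleucine, methionine and phenylalanine ran the other way, by 0.07 to 0.21. No test of these distances was possible without values per sample.

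**Figure D3:**
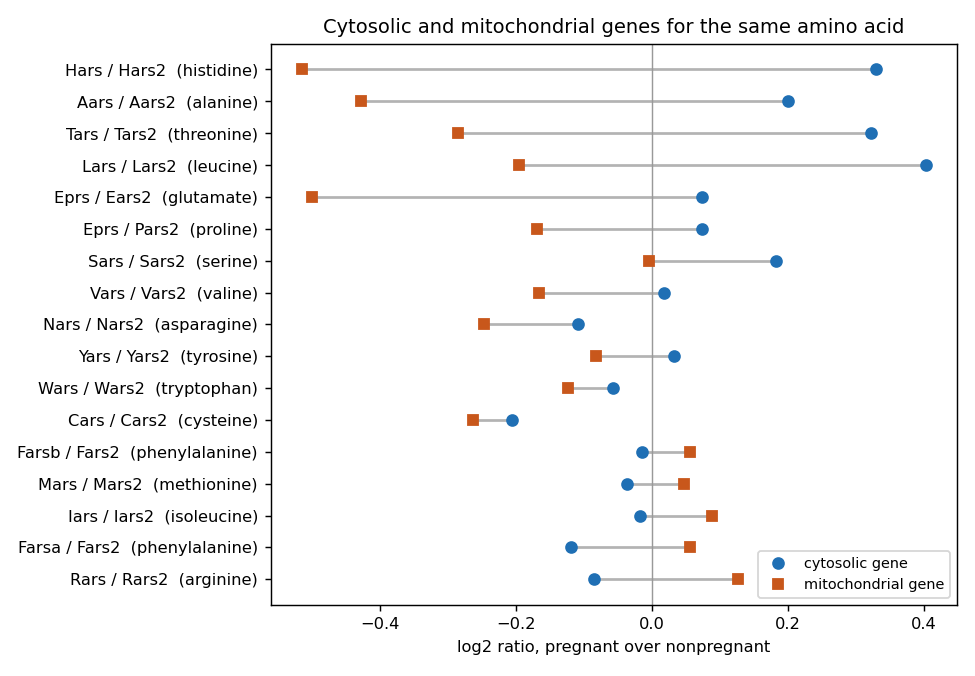
Deposited log2 ratios of pregnant over nonpregnant islets for cytosolic genes (circles) and mitochondrial genes (squares) that serve the same amino acid, 1 pairing per row, ordered by distance. Histidine has the widest distance at 0.85, and the 5 lowest rows have the mitochondrial gene on the higher side.

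Levels were compared between genes as mean reads per kilobase of all annotated exons, which understates genes whose annotation includes long retained introns or untranslated ends. The cytosolic genes had a median of 1522 reads per kilobase in pregnant islets and 1453 in nonpregnant islets. The mitochondrial genes had a median of 255 reads per kilobase in pregnant islets and 307 in nonpregnant islets. Gars, the glycine enzyme, which also serves both compartments, was the most abundant cytosolic gene, at 7181 reads per kilobase in pregnant islets and 6601 in nonpregnant islets. Farsa was the lowest cytosolic gene, at 644 reads per kilobase in pregnant islets and 717 in nonpregnant islets. In 16 of the 17 pairings the cytosolic gene was the more abundant per kilobase in pregnant islets. The exception was leucine, which rests on the count of Lars2.

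Lars2, the mitochondrial leucine enzyme, stood apart from all other members. Its authors' means were 159762 reads in pregnant islets and 188719 reads in nonpregnant islets. Per kilobase this is 14407 reads in pregnant islets and 17019 reads in nonpregnant islets, whereas the next mitochondrial gene, Rars2, had 1007 reads per kilobase in pregnant islets and 945 in nonpregnant islets. The fold change of Lars2 was 0.87 by the authors' deposited table with an unadjusted p of 0.782. Vars2, at a fold of 0.89 by the authors' deposited table and with far fewer reads, had an unadjusted p of 0.137. Whether all reads counted for Lars2 come from its mRNA was not tested, so its level is uncertain. Because of Lars2, the 16 mitochondrial genes summed to 183980 mean reads in pregnant islets and 216183 in nonpregnant islets. Without it the other 15 summed to 24218 mean reads in pregnant islets and 27464 in nonpregnant islets, and their median log2 ratio was still -0.17. The 20 cytosolic genes summed to 197894 mean reads in pregnant islets, which is 0.226% of all reads, and 189857 in nonpregnant islets, which is 0.225%. Lars2, Gars, Nars2, Farsa, Rars2 and Vars2 and, further on, Eif2ak4, Xpot and Tufm were singled out after their values were seen.

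**Figure D4:**
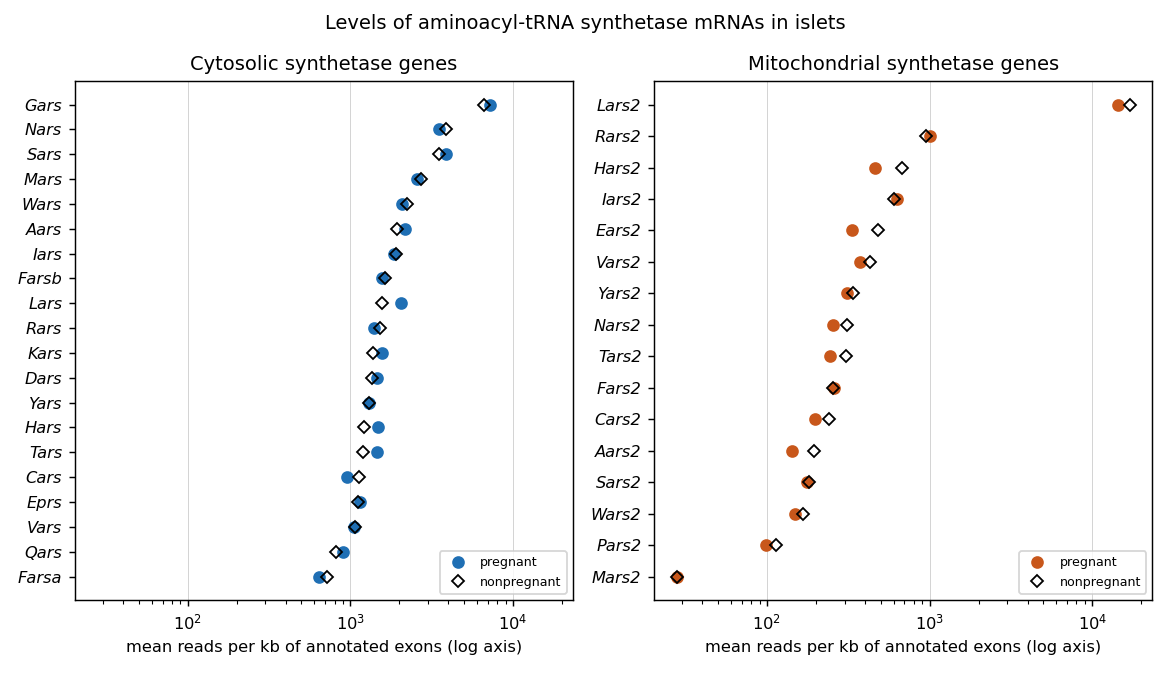
Mean reads per kilobase of annotated exons (log axis) for each cytosolic gene (left panel) and mitochondrial gene (right panel), with filled circles for pregnant and open diamonds for nonpregnant islets. Each symbol is 1 group mean. The mitochondrial genes other than Lars2 lie between 28 and 1007 reads per kilobase in pregnant islets, and Lars2 lies at 14407.

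Promoter sequences were looked at because ATF4 is the best known regulator that synthetase genes share. Windows of 300 bases, from 250 before to 50 after the start site, were found in RefSeq for 27 of the 36 genes (build GRCm38.p6), 13 cytosolic and 14 mitochondrial. The ATF4 element was searched on both strands as TGATGNAA. It was present in 5 of 13 cytosolic windows (38.5%), those of Aars, Gars, Iars, Tars and Yars, in 0 of 15 mitochondrial windows, and in 3.97% of all 32851 windows. The stretches around the matches are shown 5′ to 3′ in the direction of the gene, with the matching letters in capitals, beside that of Asns, asparagine synthetase, a classical ATF4 target. In Aars, Iars, Tars and Yars the element has the form TGATGCAA, read on the reverse strand as TTGCATCA, a form held by 0.895% of all windows. Aars has a further match near its start site.
Aars, chr8:111033694-111033891, plus strand: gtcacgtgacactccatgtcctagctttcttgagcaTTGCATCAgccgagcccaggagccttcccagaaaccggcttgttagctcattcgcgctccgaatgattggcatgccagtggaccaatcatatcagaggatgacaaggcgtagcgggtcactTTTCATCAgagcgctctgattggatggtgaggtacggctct
Gars, chr6:55037935-55038014, plus strand: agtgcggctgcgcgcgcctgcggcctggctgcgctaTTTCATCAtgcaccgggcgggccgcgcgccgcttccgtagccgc
Iars, chr13:49682101-49682179, plus strand: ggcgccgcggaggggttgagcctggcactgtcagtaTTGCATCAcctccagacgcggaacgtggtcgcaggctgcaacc
Tars, chr15:11399630-11399709, minus strand: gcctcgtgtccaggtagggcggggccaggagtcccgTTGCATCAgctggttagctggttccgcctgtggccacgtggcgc
Yars, chr4:129189870-129189949, plus strand: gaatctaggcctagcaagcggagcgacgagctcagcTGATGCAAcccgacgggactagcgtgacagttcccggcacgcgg
Asns, chr6:7693189-7693268, minus strand: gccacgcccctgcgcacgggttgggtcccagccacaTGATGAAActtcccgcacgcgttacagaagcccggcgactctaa

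Of the 5 genes with the element 0 passed over the whole table, and 1, Tars, passed when genes under 10 mean reads were left out of the adjustment. Lars and Hars, the cytosolic genes called higher, cannot both be among the 13 with a window. A lack of the element in both of them was therefore not shown. By the authors' deposited table the fold changes were 1.25 for Tars, 1.15 for Aars, 1.11 for Gars, 1.02 for Yars and 0.99 for Iars. Asns stood at 1.15 by the authors' deposited table with an adjusted p of 0.625. The E-box CACGTG, which is bound by MYC and related factors, was present in 4 of 13 cytosolic windows (Aars, Farsb, Iars and Tars), in 1 of 15 mitochondrial windows (Ears2) and in 7.15% of all windows. TTCNNNGAA, the core letters bound by STAT5 downstream of the prolactin receptor, was present in the windows of Aars, Kars and Nars2 and in 8.30% of all windows. A longer form of the STAT element was present in 1 of 13 cytosolic windows, that of Kars, in 0 of 15 mitochondrial windows and in 0.499% of all windows. CCGGAAG, an ETS family element, was present in 5 of 13 cytosolic and 4 of 15 mitochondrial windows, against 8.86% of all windows. TGACG, the core letters of the CREB element, was present in 5 of 13 cytosolic and 6 of 15 mitochondrial windows, against 20.8% of all windows. The CCAAT box was present in 7 of 13 cytosolic and 6 of 15 mitochondrial windows, against 37.4% of all windows. The palindromic NRF1 element was present in 0 of 13 cytosolic and 0 of 15 mitochondrial windows, against 0.971% of all windows. All 9 searches used both strands and the matches of different elements are counted independently. A match is a stretch of letters and not a measured binding site.

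The mRNAs of Atf4 and of most genes listed for its control did not pass. ATF4 protein and the activity of the kinases were not measured. Atf4 had authors' means of 22947 reads in pregnant islets and 23407 reads in nonpregnant islets (fold 1.01 by the authors' deposited table, with an adjusted p of 1). Of 7 genes made up of Atf4, the kinases of the initiation factor eIF2 and the phosphatase subunits that reverse them, 1 was higher and 0 were lower. This was Eif2ak2, the kinase activated by double-stranded RNA, at 1.24-fold by the authors' deposited table with an adjusted p of 0.0481. The sensor kinase Eif2ak4, which binds uncharged transfer RNA, stood at 0.96 by the authors' deposited table with an adjusted p of 0.887. Of 28 ATF4 targets outside the synthetases, 7 were higher (25%) and 2 lower (7.14%), with a median log2 ratio of 0.32 by the authors' deposited table. Of all genes tested, 7.57% were higher and 4.15% lower. The 4 with the smallest p were the proline synthesis genes Pycr1 and Aldh18a1, the stress protein gene Nupr1, and Cth of cysteine synthesis, which the authors' deposited table lists at fold changes of 2.73, 1.37, 3.8 and 5.08. Cth had few reads, with authors' means of 146 reads in pregnant islets and 29 reads in nonpregnant islets. The list was drawn up with earlier results of these data known, so its direction is not independent evidence.

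Genes that act beside the synthetases were counted in the same way, beside 7.57% higher and 4.15% lower over all genes. Of 11 measured genes for charging, formylating and maturing mitochondrial transfer RNAs, 0 passed in either direction, and the median log2 ratio by the authors' deposited table came to -0.15. At an unadjusted p under 0.05, 1 of the 11 was lower, Trmu, which thiolates mitochondrial transfer RNAs, at 0.78 by the authors' deposited table with an adjusted p of 0.196. Of 3 measured genes of editing and related proteins 0 passed, also at an unadjusted p under 0.05, with fold changes between 1.01 and 1.14 by the authors' deposited table. Of 20 genes for making and exporting transfer RNA, 0 were higher and 1 was lower (5%), a share near that of all genes. This was Polr3a, the largest subunit of RNA polymerase III, at 0.8 by the authors' deposited table with an adjusted p of 0.0437. With Polr3a included, 3 of the 20 were lower and 1 was higher at an unadjusted p under 0.05. Over all genes the unadjusted shares were 9.78% lower and 12.4% higher. Xpot, the exportin of transfer RNA, had a fold of 1.01 by the authors' deposited table with an adjusted p of 0.986.

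Translation factors of the cytosol and of mitochondria were counted as well, among them those that deliver charged transfer RNAs. Of these 9 genes, 2 were higher, 2 were lower and 5 were not called. That is 22.2% in each direction, against 7.57% higher and 4.15% lower over all genes. Among genes with at least 300 mean reads, a depth which all 9 had, the shares were 10.1% higher and 6.35% lower. The cytosolic delivery factor gene Eef1a1 had authors' means of 319750 reads in pregnant islets and 245593 reads in nonpregnant islets. It rose 1.33-fold by the authors' deposited table with an adjusted p of 0.000789, and its exchange factor subunit gene Eef1b2 rose 1.32-fold (adjusted p = 0.00328). Eef1a2, the paralog of Eef1a1 known from muscle and neurons, fell to 0.72 by the authors' deposited table with an adjusted p of 0.00401. Gfm2, a mitochondrial factor of ribosome recycling, fell to 0.79 by the authors' deposited table with an adjusted p of 0.0161. Tufm, the mitochondrial counterpart of the delivery factor, had a fold of 0.9 by the authors' deposited table with an adjusted p of 0.634. Eef1a1 has many near-identical pseudogenes, so its count is uncertain.

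**Figure D5:**
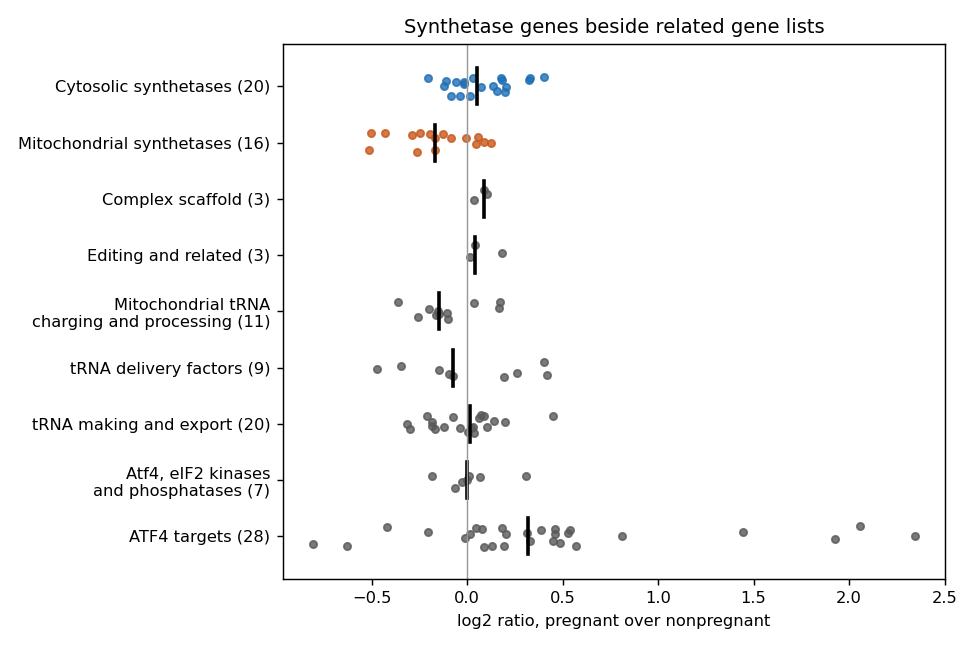
Deposited log2 ratios of pregnant over nonpregnant islets for the synthetase genes and 7 related gene lists, with 1 point per gene, the median as a black bar and the number of measured genes in parentheses. The cytosolic synthetase genes centre at 0.053 and the mitochondrial ones at -0.17. The genes for charging, formylating and maturing mitochondrial transfer RNAs centre at -0.15, whereas the ATF4 targets centre at 0.32 with a wide spread.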

How the data were processed

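RNA sequencing of islets from 3 pregnant and 3 nonpregnant samples was analysed from 1 deposited table. Per the submitters' processing notes, the tools were TopHat2 2.0.12, TopHat, Bowtie and HTSeq 0.5.3p3 with build GRCm38. The tool of the authors' test, any scaling of libraries and the strand setting are not given in the sources used here. Per the file headers, the authors deposited the mean read count of each group, a fold change (a linear ratio of pregnant over nonpregnant), its log2 ratio, a p-value and its adjusted form (FDR). Benjamini-Hochberg values recomputed from the p-values differed from the deposited ones by at most 0.00203. Deposited log2 ratios lay a median of 0.035 above those calculated from the read means (10102 genes whose means both exceeded 500 reads).

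Genes on more than 1 line (21) were counted once, and 76 genes had no symbol. A gene was called at a deposited adjusted p under 0.05 over all 19940 genes. Counts per library, edgeR and refits without single samples were planned only for a table that gave values per library. Exon lengths, positions and overlaps came from GENCODE M21, which held 96.6% of the gene IDs. Promoter windows came from RefSeq, where 9 strings of letters were searched. Calculations used Python 3.11.15, pandas 2.3.3, numpy 2.4.6 and scipy 1.17.1, and the adjustment was tested on simulated data. The members and lists were chosen with earlier results of these data known. The genes given in full were those called, the 3 largest log2 ratios of either sign among the rest of each compartment, up to 4 genes of each other list by p, Atf4, Asns and the scaffold genes. The p-values measure whatever spread the authors' test used, which may be technical. The depth of single samples was not analysed here.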

Additional observations from a re-analysis of the deposited data

How the results depend on the processing

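Of 77 recalculated values, 69 kept their direction, their side of the threshold and, for counts, stayed within 1.5 times. Several of them could not have moved, so this number does not measure robustness. The minimum of 100 mean reads removed no member, and every called gene lay beyond a fold of 1.2. Gars and Kars were not called, so moving them left the counts in place. The move lowered the cytosolic median log2 ratio from 0.053 to 0.0245 and the difference of medians from 0.22 to 0.17. A common scaling factor leaves the difference of medians almost in place. The number of cytosolic genes called higher was 1 at an adjusted p under 0.01, where Hars (adjusted p = 0.0259) no longer passed, and 1 without members that overlap a gene on the opposite strand, which removes Hars. The number of mitochondrial genes called lower was 0 without overlapping members, which removes Ears2 and Hars2. Scaling to total mean reads gave a cytosolic median log2 ratio of -0.033, against 0.0199 for unscaled ratios of the read means and 0.053 as deposited. Tars passed with an adjusted p of 0.0471 when the adjustment was made over genes with at least 10 mean reads, and Tars (0.0595) and Aars2 (0.079) passed at an adjusted p under 0.1. The other alternatives were an adjusted p under 0.1, adjustment over genes with at least 10 mean reads, a fold of at least 1.2, Gars and Kars as mitochondrial, ratios of read means, scaling without acinar and insulin genes, a pseudocount of 10 and a minimum of 100 mean reads. No paired analysis was possible because the table holds group means and no values per sample. Leaving out single samples was not run for the same reason. The means carry no counting interval of their own, since the depth of single samples is unknown here.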
